A study of Mus musculus with 12 samples.

Results

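S100 proteins and annexins are families of calcium-binding proteins, and 10 of their genes were followed in tumour-associated macrophages (TAMs) of mice given picrotoxin or its solvent. The genes were chosen by name: S100a1, S100a4, S100a6, S100a10, S100a11, Anxa1, Anxa2, Anxa3, Anxa4 and Anxa5. They are 10 of the 24781 genes in the deposited table, and all 10 passed the filter on low values that left 9580 genes for testing. The rule uses names and no measured value, although the members were chosen with earlier results of these data known.

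To ask how blocking the type A GABA receptor affects TAMs, wild-type mice carried MC38 tumours, a mouse colon carcinoma line, and received either DMSO or picrotoxin, a blocker of that receptor's chloride channel. On day 7 after inoculation, 100 CD45+CD11b+F4/80high cells were sorted from the tumour for each library. There were 6 DMSO and 6 picrotoxin libraries, all from mice without an altered gene. Per the methods every library came from a separate mouse, but a figure legend counts fewer mice than libraries, and any shared mouse would make the p-values too small. Each library held 201697 to 309617 counted molecules, and a molecule here is a distinct molecular barcode rather than a PCR read. A gene at 0 in the smallest library could therefore hold a share of up to 0.00149% (3 molecules), a limit that covers counting error only. Levels are given as normalised molecules, meaning counts divided by the DESeq2 size factor of the library.

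S100 proteins are small EF-hand proteins that bind calcium and then dock onto target proteins, many of them at the cell cortex or the plasma membrane. Annexins bind negatively charged phospholipids when calcium rises and act in membrane organisation, membrane repair and the control of inflammation. The families meet in complexes such as that of S100a10 with Anxa2, and several members are abundant in monocytes and macrophages, where S100a4 and Anxa1 are linked to cell movement and to the resolution of inflammation.

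All 5 S100 members lie on chromosome 3 (positions from GENCODE M21, GRCm38), in a pair of blocks. S100a1 lies at chr3:90511034-90514392 on the minus strand. S100a4 (chr3:90603771-90606045) and S100a6 (chr3:90612882-90624181) lie on the plus strand with 6836 bases between them, a gap that holds S100a5. S100a11 (chr3:93520488-93526287) and S100a10 (chr3:93555080-93564643) form the other block, also on the plus strand and 28792 bases apart. Of the annexins, Anxa5 is on chromosome 3 as well (chr3:36448923-36475894, minus strand), whereas Anxa1 (chr19:20373428-20390944, minus), Anxa2 (chr9:69453620-69491795, plus), Anxa3 (chr5:96793339-96845966, plus) and Anxa4 (chr6:86736840-86793584, minus) are scattered. All 10 are annotated as protein coding.

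Promoter windows are shown for S100a4 and S100a6 of the first block, for S100a11 of the other block and for Anxa2. Their differences in motif content can thus be read directly. RefSeq (GRCm38.p6) start sites matched 8 of the 10 genes, with S100a10 and Anxa3 not matched. Each line gives the 150 bases before the start, 5′ to 3′ on the strand of the gene, in lower case, with matches to the AP-1 motif TGACTCA, the TATA box TATAAA and the GC box GGGCGG on either strand in capitals.
S100a4, chr3:90603620-90603769, plus strand: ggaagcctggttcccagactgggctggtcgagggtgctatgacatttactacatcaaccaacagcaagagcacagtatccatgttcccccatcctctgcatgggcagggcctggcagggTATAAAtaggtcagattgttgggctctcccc
S100a6, chr3:90612744-90612893, plus strand: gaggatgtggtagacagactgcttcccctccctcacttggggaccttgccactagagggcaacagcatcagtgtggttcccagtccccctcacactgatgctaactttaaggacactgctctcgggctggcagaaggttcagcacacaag
S100a11, chr3:93520346-93520495, plus strand: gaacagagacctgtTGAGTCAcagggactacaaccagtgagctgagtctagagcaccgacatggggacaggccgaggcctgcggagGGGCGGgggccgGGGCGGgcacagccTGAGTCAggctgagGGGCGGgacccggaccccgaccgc
Anxa2, chr9:69453533-69453682, plus strand: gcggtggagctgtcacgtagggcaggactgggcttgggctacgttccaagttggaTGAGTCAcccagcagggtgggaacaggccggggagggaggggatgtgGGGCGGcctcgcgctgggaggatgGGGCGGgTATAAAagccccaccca
The S100a4 window held a TATA box 31 bases before the start, and the S100a6 window held none of the 3 motifs. The S100a11 and Anxa2 windows each held the AP-1 motif, which reads TGAGTCA on the other strand, together with GC boxes. The Anxa2 window also held a GC box further upstream than the bases shown. Only that of Anxa2 among these 4 held AP-1, TATA and GC box letters together. Its TATA letters began 17 bases before the RefSeq start, and GENCODE starts the gene upstream of them, at 69453620. The Anxa1 window, not shown, had a TATA box at 32 bases before the start. Over 250 bases before the start, 4.46% of all 32851 RefSeq start windows held the AP-1 motif, 12.4% the TATA box and 32.7% the GC box. These matches describe the letters and not bound sites.

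Per kilobase of the longest annotated transcript, S100a4 and S100a6 were the most abundant members. In DMSO libraries S100a4 had 341 ± 103 normalised molecules per kilobase and S100a6 had 306 ± 117 (SD, n = 6). S100a10, at 134 ± 16.1, and S100a11, at 123 ± 9.85, came next. Anxa2, at 47.0 ± 7.27, and Anxa5, at 41.5 ± 6.23, were the highest annexins on this scale. Anxa3, Anxa1, S100a1 and Anxa4 were the lowest, at 19.9 ± 4.98, 17.0 ± 3.93, 13.1 ± 2.24 and 6.96 ± 1.53 normalised molecules per kilobase. Of the 9 neighbouring pairs in this order, 5 overlapped within 1 SD of each mean, namely S100a4 with S100a6, S100a10 with S100a11, Anxa2 with Anxa5, Anxa3 with Anxa1, and Anxa1 with S100a1. Because RNA was heat-fragmented and primed with oligo-dT, molecules favour the 3′ end, so that division by length can understate long transcripts relative to short ones. Without that division the order of DMSO means differed, with S100a6 (239 normalised molecules) above S100a4 (170). Anxa2 (107) then lay above S100a10 (91.8), and Anxa5 (71.9) above S100a11 (63.0).

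**Figure D1:**
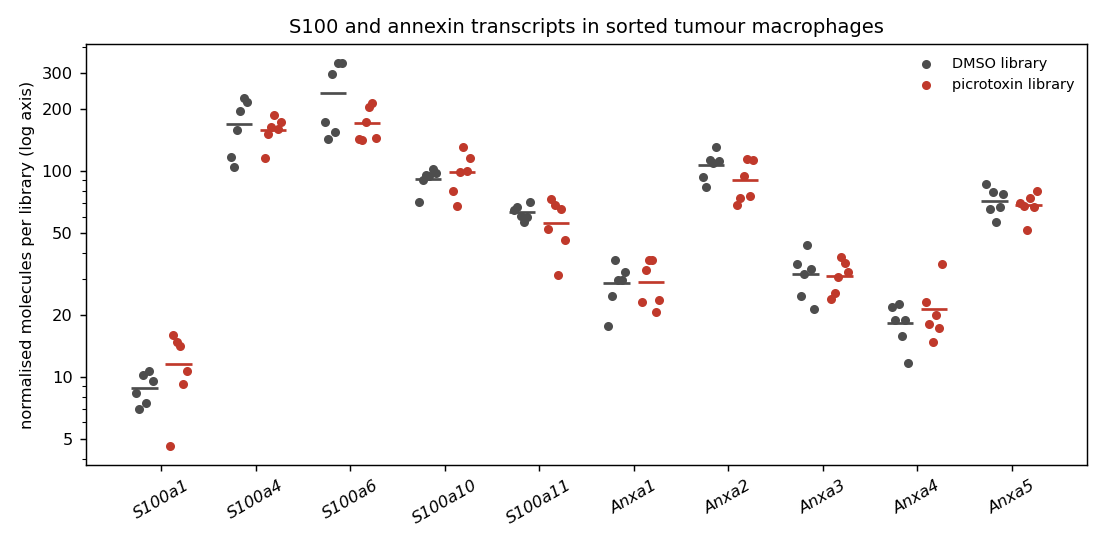
Normalised molecules (log axis) of the 10 members in each DMSO library (grey) and picrotoxin library (red), with bars for group means (n = 6). The groups overlap for every member, and the widest spread in absolute terms is that of S100a6 in DMSO libraries, from 143 to 335.

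Compared with DMSO, picrotoxin changed no member past the threshold after adjustment for all genes. In edgeR, 0 of 10 members had a Benjamini-Hochberg adjusted p under 0.05, against 0.0522% of all tested genes (5 of 9580), and the adjusted p of the members ranged from 0.392 to 0.995 in edgeR. At an unadjusted p under 0.05, 1 of 10 members passed, S100a6, which was lower with picrotoxin, against 7.77% of all genes in either direction, 4.11% lower and 3.65% higher, so that the share of members was near that background. By the rule of the study, an unadjusted Wald p under 0.05 in DESeq2, 0 of 10 members passed, against 3.82% of all genes (2.05% lower), and the DESeq2 test gave 0 members at an adjusted p under 0.05. By sign alone 4 members were higher and 6 lower, or 3 and 7 with library totals as the scaling, under which Anxa1 turned. Their median log2 fold change was -0.04, beside -0.006 over all genes. None of the 10 had groups without overlap, a property of 0.386% of all genes. Scaling by library totals also moved the share of higher genes among those with an unadjusted p under 0.05 from 47.0% to 28.9%.

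**Figure D2:**
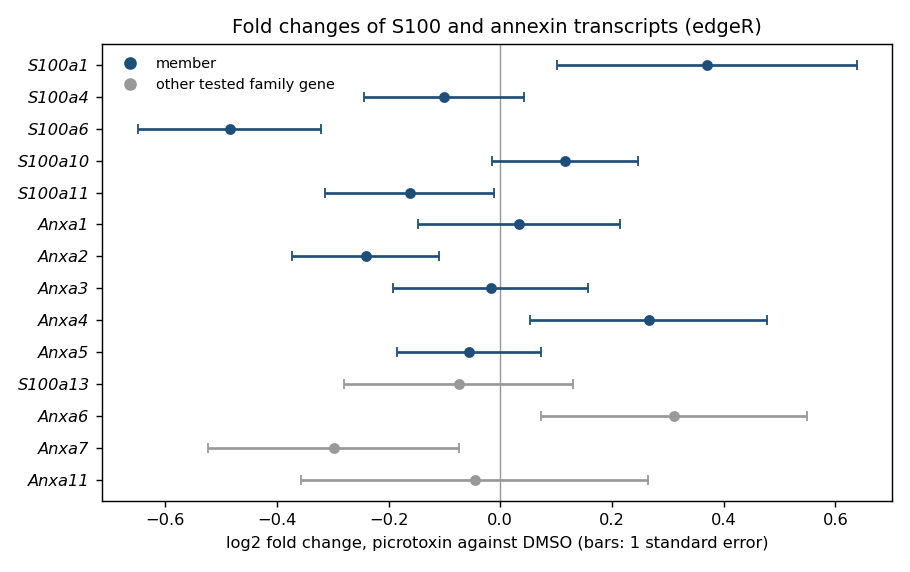
Log2 fold change of picrotoxin against DMSO (x axis) from edgeR, with bars of 1 standard error, for the 10 members (blue) and 4 other tested family genes (grey, Anxa9 not drawn for its low counts). Only the S100a6 estimate, at -0.48, lies more than 2 standard errors from 0.

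S100a6, or calcyclin, an EF-hand protein of proliferating and motile cells, gave the largest fold change among the members. It had 143 normalised molecules in the lowest DMSO library, a median of 235 and 335 in the highest. With picrotoxin the lowest library had 142, the median was 159 and the highest library had 214. DMSO replicates 3, 5 and 6, at 296, 335 and 334, lay above every picrotoxin library, whereas DMSO replicates 1, 2 and 4, at 174, 143 and 154, lay within the picrotoxin range. All 6 picrotoxin libraries were below the DMSO mean. The means were 239 ± 91.8 with DMSO and 170 ± 32.4 with picrotoxin (SD, n = 6). The log2 fold change was -0.48 (standard error 0.16), with an edgeR adjusted p of 0.392 and an unadjusted p of 0.00567. DESeq2 gave -0.49 with an unadjusted p of 0.0568 from its Wald test. The call depended on the filter on low values, since without it the edgeR adjusted p was 0.000789 over all genes with any count. The spread was unequal, since the DMSO SD was 6.18 times that of counting alone and the picrotoxin SD 2.43 times. A lower level in such bulk libraries cannot separate fewer cells that express the gene from less RNA per cell.

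Transcripts of fibroblasts and matrix moved with S100a6 across these libraries. The list of 15 fibroblast and matrix markers summed to 0.0891% to 0.510% of molecules in DMSO and 0.124% to 0.242% in picrotoxin libraries. Of its 11 tested genes, 9 were lower with picrotoxin at an unadjusted p under 0.05 in edgeR, against 4.11% of all tested genes. In DESeq2 3 passed, and it gave no p for Col1a1 and Col1a2. None of the 15 was at 0 in every library. Col3a1, a fibrillar collagen, went from 55.6 ± 75.0 to 9.25 ± 5.64 normalised molecules, and Col1a1 from 27.4 ± 64.7 to 0.533 ± 0.890 (SD, n = 6). The DMSO SD exceeded the mean for each, so these molecules were spread unevenly over the DMSO libraries and the means show no shift shared by them. Except in DMSO replicate 5, most molecules of the list came from Fn1, fibronectin, which macrophages also make, with 187 to 631 molecules in DMSO and 257 to 449 in picrotoxin libraries. The remaining 14 markers, a division made after the values were seen, summed to 254, 848 and 156 molecules in DMSO replicates 3, 5 and 6, to between 21 and 38 in the other DMSO libraries and to between 9 and 72 with picrotoxin. The 3 DMSO libraries with the most S100a6 were thus also the 3 with the most of these transcripts. Macrophage markers made up 1.13%, 1.30% and 1.28% of the molecules of DMSO replicates 3, 5 and 6, and at least 1.39% in each of the other 9 libraries. Dendritic cell markers summed to 22, 21 and 15 molecules in the same 3 DMSO libraries and to between 2 and 9 in the other 9. Only 2 of these 8 markers had enough molecules to be tested. Fscn1 alone had a mean of 7.62 normalised molecules in DMSO libraries, so the sums rest largely on that gene. With a score of the matrix markers as a covariate the log2 fold change of S100a6 was -0.13 (unadjusted p = 0.322 in edgeR). Without DMSO replicates 3 and 5 together it was -0.26 (unadjusted p = 0.106 in edgeR). As these libraries were among the 3 with the most S100a6, their removal lowers the DMSO mean by construction and is no independent check. The score was the mean log2 CPM of the 11 tested markers, Fn1 included, of which 9 were lower with picrotoxin. A fit with the score therefore cannot separate matrix transcripts from treatment. The part of these transcripts in the S100a6 difference was not tested further.

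**Figure D3:**
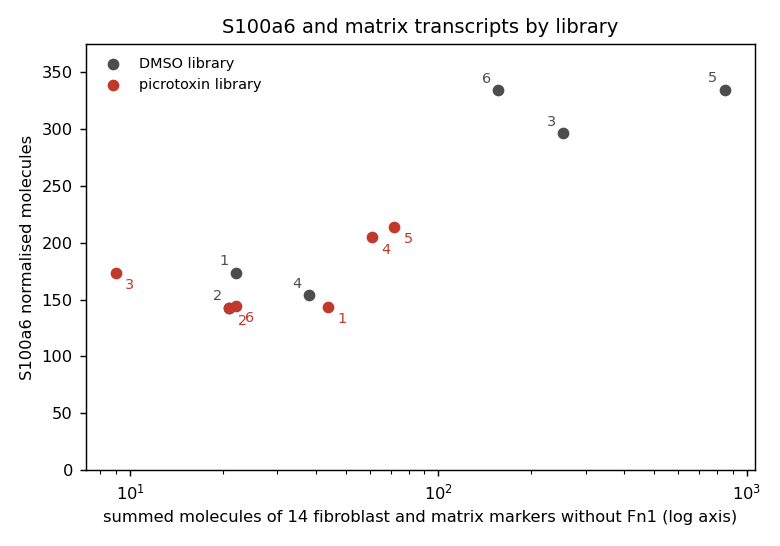
S100a6 normalised molecules (y axis) against the summed molecules of 14 fibroblast and matrix markers without Fn1 (x axis, log scale) in the 6 DMSO (grey) and 6 picrotoxin (red) libraries, numbered by replicate. DMSO replicates 3, 5 and 6 stand apart from the other 9 libraries on both axes.

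S100a4, which binds non-muscle myosin and is known for its part in cell motility, lies near S100a6 and differed less. DMSO libraries had 104, 177 and 226 normalised molecules at the lowest, median and highest. Picrotoxin libraries had 116, 161 and 187. DMSO replicates 4, 5 and 6 were above every picrotoxin library and DMSO replicate 2 was below all of them, so the picrotoxin range lay inside the DMSO range. The log2 fold change was -0.10 (standard error 0.14), at an adjusted p of 0.927 in edgeR. Its sign turned, to 0.11, once the matrix score was a covariate, a score that includes Fn1 (r = 0.90 with S100a4 over the 12 libraries). An interval of 2 standard errors around the uncorrected value ran from -0.39 to 0.19. The counts of S100a4 are uncertain to the extent that an annotated transcript of Gm42674 shares 302 of its bases on the same strand, although the table has no row of that name.

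S100a1, best known as a regulator of calcium handling in muscle, was the rarest member in molecules, with 7 to 13 per DMSO library and 5 to 15 per picrotoxin library. Its normalised level was 8.85 ± 1.52 with DMSO and 11.5 ± 4.24 with picrotoxin (SD, n = 6). Of the picrotoxin libraries 4 were above every DMSO library and 1 was below all of them. The edgeR estimate was a log2 fold change of 0.37 (standard error 0.27), at an adjusted p of 0.806. Picrotoxin replicate 1 held this lowest value, and without it the log2 fold change was 0.55 (unadjusted p = 0.0379 in edgeR). S100a1 starts 42 bases from S100a13, which is on the opposite strand, and whether the counting used strand was not given in the sources used here.

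S100a10, also called p11, lacks working calcium binding and is held at the membrane by Anxa2, its partner in a heterotetramer that binds plasminogen. DMSO libraries held 70.8, 94.9 and 102 normalised molecules of S100a10 at the lowest, median and highest. Picrotoxin libraries held 68.0, 99.4 and 131. The picrotoxin libraries were the more spread, with 2 above and 1 below the whole DMSO range. Its fold change on the log2 scale was 0.12 (standard error 0.13), at an adjusted p of 0.894 in edgeR.

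Anxa2, which organises membrane and actin at the cell cortex, leaned the other way. DMSO libraries held 83.4, 110 and 131 normalised molecules at the lowest, median and highest, and picrotoxin libraries 68.2, 85.3 and 114. Picrotoxin replicates 1, 2 and 5 lay below every DMSO library and DMSO replicate 5 lay above every picrotoxin library, with the remainder overlapping. The means were 107 ± 16.6 and 90.2 ± 20.5 (SD, n = 6). The log2 fold change was -0.24 (standard error 0.13), with an edgeR adjusted p of 0.726 and an unadjusted p of 0.0761. The unadjusted p passed 0.05 in 4 of the 12 fits that left out a library, at 0.0485 without DMSO replicate 1, 0.0302 without DMSO replicate 2, 0.0240 without picrotoxin replicate 4 and 0.0255 without picrotoxin replicate 6 (edgeR). Its log2 fold change was -0.12 once the matrix score was a covariate. An antisense gene, Gm16144, overlaps Anxa2.

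Since partners are measured in the same library, their ratio does not depend on the scaling between libraries. The S100a10 to Anxa2 ratio was higher with picrotoxin. In DMSO libraries there were 0.756, 0.851 and 1.08 molecules of S100a10 per molecule of Anxa2 at the lowest, median and highest, and in picrotoxin libraries 0.914, 1.10 and 1.32. All DMSO libraries but replicate 2 were below the lowest picrotoxin library, and 3 picrotoxin libraries were above every DMSO library. The mean log2 ratio was -0.22 ± 0.18 with DMSO and 0.13 ± 0.18 with picrotoxin (SD, n = 6), a difference of 0.35. With every relabelling of the libraries enumerated, the exact permutation p was 0.0130 (two-sided), or 0.0260 after Benjamini-Hochberg adjustment over the 2 ratios tested, and 6 of 6 picrotoxin libraries were above the DMSO mean. This call changed when some single libraries were left out. The adjusted exact permutation p stayed under 0.05 in 6 of 12 such fits, and the difference ranged from 0.29 to 0.41 over all 12. In the other 6 fits the adjusted exact permutation p was 0.0519, with differences between 0.29 and 0.34. Those fits left out replicate 1, 3 or 5 of DMSO, or replicate 1, 4 or 5 of picrotoxin. Without DMSO replicates 3 and 5 together the difference was 0.30 (exact permutation p = 0.0571, adjusted 0.114). Their ratios, 0.838 and 0.781, were below the DMSO median, so this removal narrows the difference by construction. A ratio shows unequal change and not which of the pair changed.

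S100a11, or S100C, pairs with Anxa1 in a complex described at endosomes and the plasma membrane. DMSO libraries held 56.6, 62.5 and 70.3 normalised molecules of S100a11 at the lowest, median and highest, and picrotoxin libraries 31.1, 59.0 and 73.3. Picrotoxin replicates 1, 4 and 6 were below every DMSO library, the lowest being replicate 4, while the DMSO libraries varied by no more than counting (0.660 times the counting SD). The log2 fold change was -0.16 (standard error 0.15), at an adjusted p of 0.864 in edgeR. Processed pseudogenes Gm12854 and Gm7665 share 297 bases with the S100a11 transcript at 99.0% and 98.7% identity, and the table has no row for either, so that reads from them, if any, could be counted here.

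Anxa1, an inhibitor of phospholipase A2 and a ligand of formyl peptide receptors in the resolution of inflammation, differed between groups by less than its spread. DMSO libraries held 17.7, 29.6 and 36.9 normalised molecules at the lowest, median and highest, and picrotoxin libraries 20.7, 28.2 and 37.1. The log2 fold change was 0.03, with 2 standard errors reaching from -0.33 to 0.40, and its adjusted p was 0.986 in edgeR. The S100a11 to Anxa1 ratio was 2.10 molecules at the median in DMSO and 2.09 in picrotoxin libraries. The difference of mean log2 ratios was -0.24 (exact permutation test, two-sided, p = 0.487), with picrotoxin replicate 4, at 0.838, below all others. Without that library the difference was -0.0083 and the log2 fold change of S100a11 was -0.038. Anxa1 also has an overlapping gene on the other strand.

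**Figure D4:**
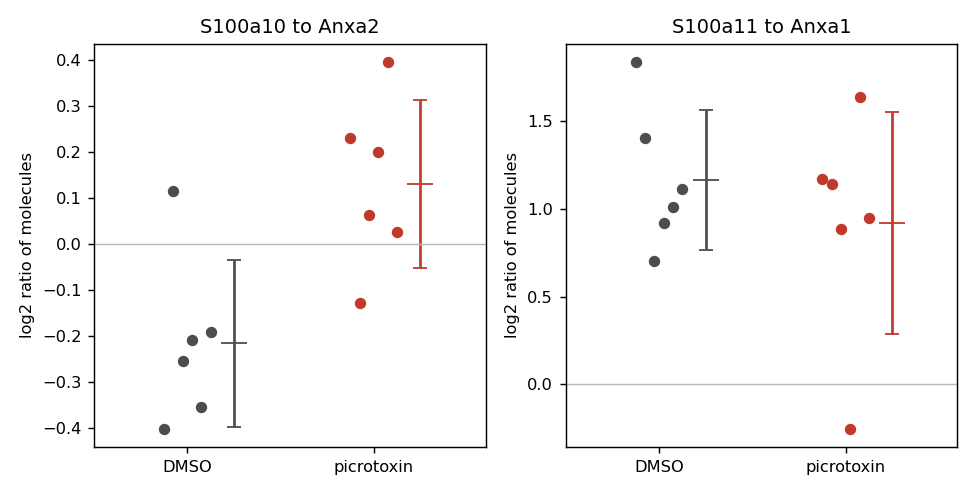
Log2 ratio of molecules of S100a10 to Anxa2 (left) and of S100a11 to Anxa1 (right) in each library, with the mean and 1 SD beside each group of 6. On the left the picrotoxin libraries sit higher, by 0.35 at the mean, and on the right the groups overlap, with 1 picrotoxin library far below the others.

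Anxa5, whose protein binds exposed phosphatidylserine, had 71.9 ± 10.8 normalised molecules with DMSO and 68.5 ± 9.67 with picrotoxin (SD, n = 6). Its fold change on the log2 scale was -0.06 (standard error 0.13), so that 2 standard errors spanned -0.31 to 0.20. Anxa3, an annexin of phagocytes, had 31.7 ± 7.94 and 31.0 ± 5.55 normalised molecules (SD, n = 6) and a log2 fold difference of -0.02. Anxa4, an annexin linked to membrane traffic and to repair, had 18.3 ± 4.02 and 21.4 ± 7.38 (SD, n = 6), with a fold change on the log2 scale of 0.27. All 3 had overlapping groups, and their adjusted p was between 0.825 and 0.995 in edgeR. Segments of 102 and 121 bases of Anxa4 transcripts recur in transcripts of Ndufs1 and Wdr33, the former at 95.1% identity, so its counts are less certain. In Anxa4, picrotoxin replicate 6 was the highest at 35.4, and the others lay between 14.7 and 23.0. The log2 fold change of Anxa4 was 0.067 without that library and 0.15 without DMSO replicate 6.

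Across all 12 libraries the 10 members together made up 0.361% ± 0.0718 of molecules with DMSO and 0.310% ± 0.0362 with picrotoxin (SD, n = 6). The 5 S100 members gave 0.249% ± 0.0640 and 0.209% ± 0.0270, and the 5 annexins 0.112% ± 0.0104 and 0.101% ± 0.0145 (SD, n = 6). The ranges of the groups overlapped for all 3 sums. Of the 45 pairs of members, S100a4 with Anxa2 had the highest Pearson correlation of log2 CPM over the 12 libraries (r = 0.71). The lowest was that of S100a10 with S100a11 (r = -0.69). The mean over the pairs was 0.09, a description over libraries of both treatments.

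Several members also differed by the replicate number of the library, whatever the treatment. The labels do not say what the numbers stand for, and the division into 1 and 2 against 3 to 6 was chosen with values known. Its ranges are therefore given without a test, and refits that use the division describe these libraries only. S100a4 averaged 111 normalised molecules in DMSO replicates 1 and 2 and 199 in DMSO replicates 3 to 6, and 133 against 170 in picrotoxin replicates. S100a10 averaged 80.6 against 97.4 in DMSO and 74.1 against 112 in picrotoxin libraries. Anxa2 averaged 88.5 against 116 in DMSO and 71.3 against 99.6 in picrotoxin libraries. For these 3 genes the ranges of the number groups did not overlap in either treatment. Replicates 3 to 6 lay above replicates 1 and 2 without overlap in both treatments for 0.877% of all tested genes. Because the division was chosen with values known, that share does not measure how unusual the 3 genes are. S100a6, Anxa1 and Anxa3 had separate ranges in 1 treatment each, and S100a1, S100a11, Anxa4 and Anxa5 had overlapping ranges in both. S100a6 had a lower mean with picrotoxin in both number groups, at 158 in DMSO against 143 in picrotoxin replicates 1 and 2, and 280 against 184 in replicates 3 to 6. Among replicates 3 to 6 alone, its log2 fold change was -0.59 (standard error 0.15). There DMSO replicates 3, 5 and 6 had 296, 335 and 334 normalised molecules of S100a6. DMSO replicate 4, at 154, lay within the picrotoxin range of 145 to 214.

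**Figure D5:**
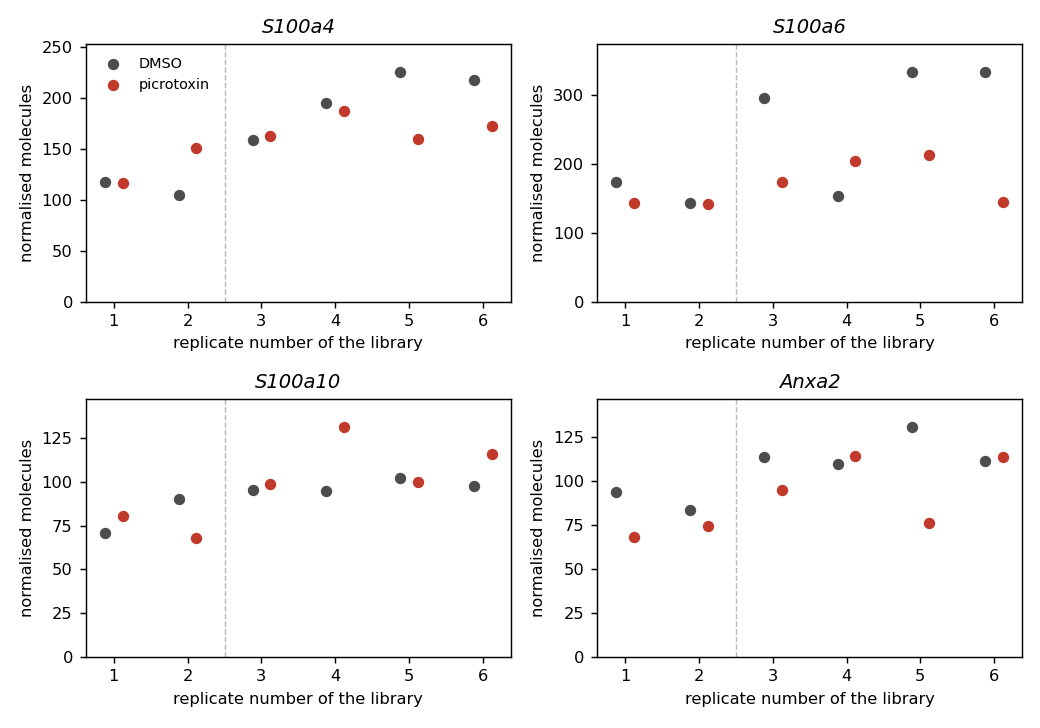
Normalised molecules (y axis) of S100a4, S100a6, S100a10 and Anxa2 by replicate number (x axis) in DMSO (grey) and picrotoxin (red) libraries, with a dashed line between numbers 2 and 3. S100a4, S100a10 and Anxa2 are lower in libraries 1 and 2 than in libraries 3 to 6 in both groups.

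The genes most like S100a4, S100a6, S100a10, S100a11, Anxa1 and Anxa2 over the 12 libraries were found among 2058 genes with a mean count of at least 20, by Pearson correlation of log2 CPM. For S100a4 they were Fn1 (r = 0.90), the lysosomal protease gene Ctsd (0.89) and F13a1 (0.87), a monocyte and macrophage transglutaminase. For S100a6 they were Rpl8 (r = 0.90), Sparc (0.88) and Ccdc36 (0.88). Of these, Sparc, a matrix glycoprotein, is on the fibroblast list, and it had a log2 fold change of -1.94 (unadjusted p = 0.00229 in edgeR). Ccdc36 had a log2 fold change of -1.10 (unadjusted p = 7.94e-05 in edgeR) and Rpl8 of -0.16. S100a10 was closest to Gsk3b (0.88), Pcbp1 (0.87) and Sbno1 (0.85), and S100a11 to Rtn3 (0.85), Prdx6 (0.83) and Tcp1 (0.78). Anxa1 was closest to Emg1 (0.83), Rps3a1 (0.82) and Rps3 (0.81), and Anxa2 to Rps12 (0.88), Sumo2 (0.81) and Lgals1 (0.79). None of the 10 members was among the 3 closest genes of these 6. These values are the highest of many and describe shared variation between libraries only.

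Of 11 other S100 genes, only S100a13, a gene linked to the release of growth factors, was tested, and 6 had no molecule in any library, among them S100a9. S100a8, with S100a9 a subunit of calprotectin, the abundant complex of neutrophils and monocytes, had 5 molecules in all 12 libraries together. S100a13 had 14.5 ± 0.952 normalised molecules with DMSO and 13.6 ± 2.44 with picrotoxin (SD, n = 6), with a fold change on the log2 scale of -0.07. Of 7 other annexins 4 were tested, and the unadjusted p of each was above 0.05 in edgeR. Anxa6 had a log2 fold change of 0.31 (standard error 0.24), Anxa7 of -0.30 (0.22) and Anxa11 of -0.05 (0.31). Anxa9 had 0 to 5 molecules per DMSO library and 0 to 2 per picrotoxin library, too few for a fold change.

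The partners of the families were listed next to the members, and 1 of 14 tested genes on that list passed an unadjusted p under 0.05 in edgeR. Over all tested genes that share was 7.77%. Bsg, or basigin, a receptor for extracellular S100 proteins among other ligands, was lower with picrotoxin, at 63.5 ± 10.3 normalised molecules with DMSO and 44.7 ± 11.02 with picrotoxin (SD, n = 6). Its fold change on the log2 scale was -0.50 (standard error 0.15), at an adjusted p of 0.312 in edgeR. Fpr2, a receptor of Anxa1, had a log2 fold change of 0.57 (standard error 0.28, unadjusted p = 0.0517 in edgeR). Ahnak, the large scaffold that the S100a10 and Anxa2 complex binds, had 0.25 (0.14). The median log2 fold change of the list was 0.07, beside -0.006 over all genes.

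In membrane repair, where annexins act with calpains and ESCRT proteins, 2 of 13 tested genes were lower and none higher at an unadjusted p under 0.05 in edgeR, with a median log2 fold change of -0.07. Of all tested genes, 4.11% were lower and 3.65% higher at that threshold. Chmp3, an ESCRT-III subunit, went from 21.0 ± 4.13 to 13.4 ± 3.66 normalised molecules, a log2 fold change of -0.63. Cavin1, a coat protein of caveolae that fibroblasts also express, went from 6.55 ± 6.35 to 1.24 ± 1.39 (SD, n = 6). Among 20 genes of calmodulin and other calcium-binding proteins, 3 were higher and none lower, with a median log2 fold change of 0.005. Lcp1, the leukocyte actin bundler L-plastin, went from 210 ± 44.9 to 290 ± 25.2 normalised molecules (SD, n = 6), and its log2 fold change was 0.48 at an adjusted p of 0.0975 in edgeR. Efhd2, a calcium-binding actin regulator, had a log2 fold change of 0.27. Of 15 genes of cell mobility, Pfn1 (-0.56) and Tmsb10 (-0.25), both binders of monomeric actin, were lower and Flna (0.28), an actin cross-linker, was higher, with a median of -0.10. None of these genes passed at an adjusted p under 0.05 in edgeR.

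The sorted cells carried the macrophage label's markers. All 13 macrophage markers were tested and summed to 1.40% ± 0.193 of molecules with DMSO and 1.49% ± 0.0565 with picrotoxin (SD, n = 6), and 3 were higher at an unadjusted p under 0.05 in edgeR. Of all tested genes, 3.65% were higher at that threshold. Monocyte markers, relevant because S100a4 and S100a6 are also monocyte transcripts, summed to 0.171% ± 0.0245 and 0.177% ± 0.0197 (SD, n = 6), with 1 of 8 tested genes higher and 1 lower. Of 12 neutrophil markers, 7 were at 0 in every library, Ly6g and S100a9 included, and the list summed to between 4 and 13 molecules per library.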

How the data were processed

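The authors mapped reads to mm10 with STAR and deposited, for each gene symbol, the count of distinct molecular barcodes, with refFlat as the annotation. Multi-mapping, strand and barcode-error handling were not given in the sources used here. Of the deposited counts, genes with a mean above 1 normalised molecule were tested with the quasi-likelihood test of edgeR 4.0.16 (TMM, Benjamini-Hochberg over 9580 genes). Standard errors are the log2 fold change over the square root of F. DESeq2 1.42.0 was fitted on the whole table. Ratios used a pseudocount of 0.5. Log2 CPM used a prior count of 2. Alternatives covered scaling, filters, tool, replicate block and left-out libraries.

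The 12 libraries were grouped by their labels. The members and gene lists were chosen with earlier results of these data known. Named genes were all members, other tested family genes, up to 3 per list by smallest p, and the 3 most alike. The result of 1 of these genes is left out here, although it is counted. Same-group pairs differed by more than counting noise (chi-square per degree of freedom 1.23 to 3.15, 30 pairs). Positions are from GENCODE M21 and promoters from RefSeq, a different annotation from that counted.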

Additional observations from a re-analysis of the deposited data

How the results depend on the processing

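Over 240 refits of single members, 213 kept their direction and side of an unadjusted p of 0.05. S100a6 was lower in 24 of 24 alternatives, with an unadjusted p under 0.05 in 21. That p was above 0.05 with DESeq2, where the log2 fold change was -0.49 with a larger standard error (0.26). It was also above 0.05 without DMSO replicates 3 and 5 together (-0.26) and with the matrix score (-0.13), where the log2 fold change was smaller. No member reached an adjusted p under 0.05 except S100a6 with no filter beyond 1 count (1 member, adjusted p = 0.000789 in edgeR). Members at an unadjusted p under 0.05 numbered 2 with library totals, that looser filter, the replicate block or a term for numbers 1 and 2 against 3 to 6 (Anxa2 and S100a6 each time), and 0 with DESeq2, without DMSO replicates 3 and 5 together, or with the matrix score. They numbered 1 to 2 when single libraries were left out. By the rule of the study, 0 members became 1 with the unadjusted edgeR test, the replicate block or replicates 3 to 6 alone, 2 with library totals, and 0 to 2 with single libraries left out.

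S100a1 passed an unadjusted p of 0.05 in 1 refit and Anxa2 in 8. The 15 changes of sign were in S100a4, Anxa1, Anxa3 and Anxa5, whose log2 fold changes lay between -0.10 and 0.03. S100a1 and Anxa4 had the largest standard errors of the members, 0.27 and 0.21. S100a1 also had the fewest molecules. S100a4 turned to 0.11 with the matrix score. Anxa1 turned to -0.025 with library totals and -0.081 in replicates 3 to 6 alone, and Anxa3 to 0.0077 with limma-voom, 0.11 in replicates 3 to 6 alone and 0.0014 without DMSO replicates 3 and 5 together. With single libraries left out, Anxa1 ranged from -0.064 to 0.11, Anxa3 from -0.12 to 0.087 and Anxa5 from -0.12 to 0.014. The causes were not tested.

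The S100a10 to Anxa2 difference stayed positive in all 19 alternatives, from 0.29 to 0.41 with single libraries left out, and its adjusted p was under 0.05 in 10 of them. It was 0.42 in replicates 3 to 6 alone (exact permutation p = 0.0286, the smallest that 4 against 4 allows, adjusted 0.0571), 0.30 without DMSO replicates 3 and 5 together, and 0.35 with the replicate block (exact sign-flip p = 0.0938, adjusted 0.188). Permuted within numbers 1 and 2 and within 3 to 6, the exact adjusted p was 0.0381. The division by number was chosen with values known, so p-values that use it are no independent support. The S100a11 to Anxa1 difference was past the threshold in 0 of 19 alternatives.

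Over all genes, the 5 with an adjusted p under 0.05 in edgeR became 81 with no filter beyond 1 count, 13 with library totals, 2 with DESeq2, 3 with limma-voom, 43 with the replicate block, 49 in replicates 3 to 6 alone, 27 with the number term, 1 without DMSO replicates 3 and 5 together, 0 with the matrix score, 12 without Rn45s, and 0 to 25 with single libraries left out. The 26 of 106 other listed genes with an unadjusted p under 0.05 became 14 with a mean above 10, 16 with DESeq2, 9 without DMSO replicates 3 and 5 together, 12 with the matrix score and 18 to 31 with single libraries left out. Over all tested genes the share at that threshold was 7.77% in the main edgeR fit. The 26 include 9 fibroblast and matrix markers. Same-numbered libraries did not deviate together (r from -0.02 to 0.05 over 6 pairs), and the labels give no pairing, so the replicate block is given here only.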

Other observations

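Transcripts of further cell types were scarce in the libraries in which the S100 and annexin genes were counted. Of 8 dendritic cell markers, 2 were tested, and Fscn1, an actin bundler of mature dendritic cells, was lower at an unadjusted p under 0.05, with a log2 fold change of -1.11 (adjusted p = 0.640 in edgeR). The list was highest in DMSO replicates 3, 5 and 6, the libraries with the most S100a6. T and NK cell markers summed to 0 to 1 molecule per DMSO library and 0 to 2 per picrotoxin library, except picrotoxin replicate 6 with 23. The one tested of them, Gzmb, a granzyme of cytotoxic cells, had 0.165 ± 0.405 normalised molecules with DMSO and 3.57 ± 8.75 with picrotoxin (SD, n = 6), the latter from replicate 6 alone. Of the B cell markers Cd79b alone was tested, at 1.24 ± 1.04 normalised molecules with DMSO and 1.91 ± 0.448 with picrotoxin (SD, n = 6). Of 7 epithelial markers 4 were at 0 everywhere, and Cdh1, which encodes E-cadherin, had 9.62 ± 2.15 normalised molecules with DMSO and 15.7 ± 5.84 with picrotoxin (SD, n = 6), a log2 fold change of 0.70 (adjusted p = 0.428 in edgeR).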
